A study of Mus musculus with 4 samples.

Results

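The SLAM family genes were followed in bulk RNA of CD8 T cells that recognise ovalbumin, sorted out of E.G7 tumours. The 9 genes were chosen by name, with earlier results of these data known. They were the receptor genes Slamf1, Slamf6, Slamf7, Slamf8, Slamf9, Cd84, Ly9 and Cd48, and the adaptor gene Sh2d1a. All 9 were among the 14082 genes listed for each library, and all 9 passed the filter on low counts, which left 13358 genes. E.G7 is a mouse T lymphoma line (a derivative of EL4) that expresses ovalbumin, and it was grown under the skin of the flank in mice aged 6 to 10 weeks. Every host carried Smad4-fl/fl, a Smad4 gene flanked by Cre recognition sites. Hosts labelled WT carried it alone, and hosts labelled KO also carried Cd8-cre, which is meant to remove the floxed part in cells that use the Cd8 promoter, so tumour cells and other host cells need not lose it. Each group had 2 libraries. Whether these stem from different mice is not in the labels, and the p-values cover only the scatter between libraries, which may be technical.

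SLAM receptors are surface proteins of the immunoglobulin superfamily that are found mainly on blood cells. Most bind a copy of themselves on a neighbouring cell, while CD48 binds CD244 and, in mice, CD2. The tails of most family members carry tyrosine motifs that recruit SAP, the small adaptor encoded by Sh2d1a, which brings in the kinase FYN. When SAP is scarce the same motifs can bind phosphatases instead, and lack of SAP impairs killing by CD8 T cells and NK cells. SLAMF8 and SLAMF9 have short tails and are known mainly from macrophages and dendritic cells.

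Summed counts lay between 24366540 and 26218277 per library. Smad4 served to check the labels and had counts of 752 and 736 under the WT label and of 779 and 1088 under the KO label. Its log2 fold change was 0.19 (edgeR quasi-likelihood, Benjamini-Hochberg adjusted p = 0.397), or -0.063 without KO replicate 2 and 0.40 without KO replicate 1 (edgeR adjusted p = 0.785 and 0.00806, the highest and lowest over its alternatives). On a scale set by T cell markers, described below, it was at 0.52 (edgeR adjusted p = 0.0124). Smad4 was thus not lower under the KO label, and a gene-level count includes exons that Cre leaves in place. The sorted samples held transcripts of other cells. Of 12 monocyte and macrophage markers 2 were lower and 2 higher, and their summed level was 18332 and 19023 CPM (counts relative to the library total after TMM scaling) in WT and 18134 and 18823 in KO. Of 10 neutrophil markers 7 were higher and 0 lower, at 694 and 709 CPM in WT and 1962 and 1981 in KO. Of 10 pan T cell markers 6 were lower and 1 higher, at 2890 and 2986 CPM against 2343 and 2317, and both CD8 chains were lower, at 778 and 759 CPM against 396 and 405. Of 3 CD4 and regulatory T cell markers, Cd4 was higher, at 26.9 and 32.2 CPM in WT and 63.1 and 67.7 in KO (log2 fold change 1.14, edgeR adjusted p = 7.42e-06), and the other 2, Foxp3 and Ikzf2, did not pass. NK cell markers summed to at most 1.40 CPM, with Ncr1 at 0 in KO replicate 1, and B cell markers to at most 17.5 CPM. The share of mitochondrial transcripts was 10.2% to 10.4% in WT and 6.57% to 6.99% in KO. The part of these shifts in the results below was not tested.

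Of the 9 SLAM family genes, 7 fell in the libraries labelled KO, 0 rose, and Slamf6 and Ly9 did not pass the test. Sh2d1a fell most, 2.81-fold, followed among the receptors by Slamf8 (1.64-fold) and Slamf1 (1.48-fold). A gene was called at an adjusted p under 0.05 over all genes tested. By that rule 11.0% of all tested genes were lower and 10.1% higher, 1472 and 1354 genes. The 9 genes were chosen with earlier results of these data known, and their count was not tested against these shares. The same 7 genes had both KO libraries below both WT libraries, which held for 30.0% of all tested genes. The median log2 fold change of the 9 genes was -0.48, against -0.0037 over all genes tested. The count depended on the scale between libraries: set on the summed pan T cell markers in place of TMM factors, 2 members were lower (Sh2d1a and Slamf8) and 2 higher (Slamf6 and Ly9). In bulk samples, fewer cells of a type and less RNA per cell cannot be told apart.

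**Figure D1:**
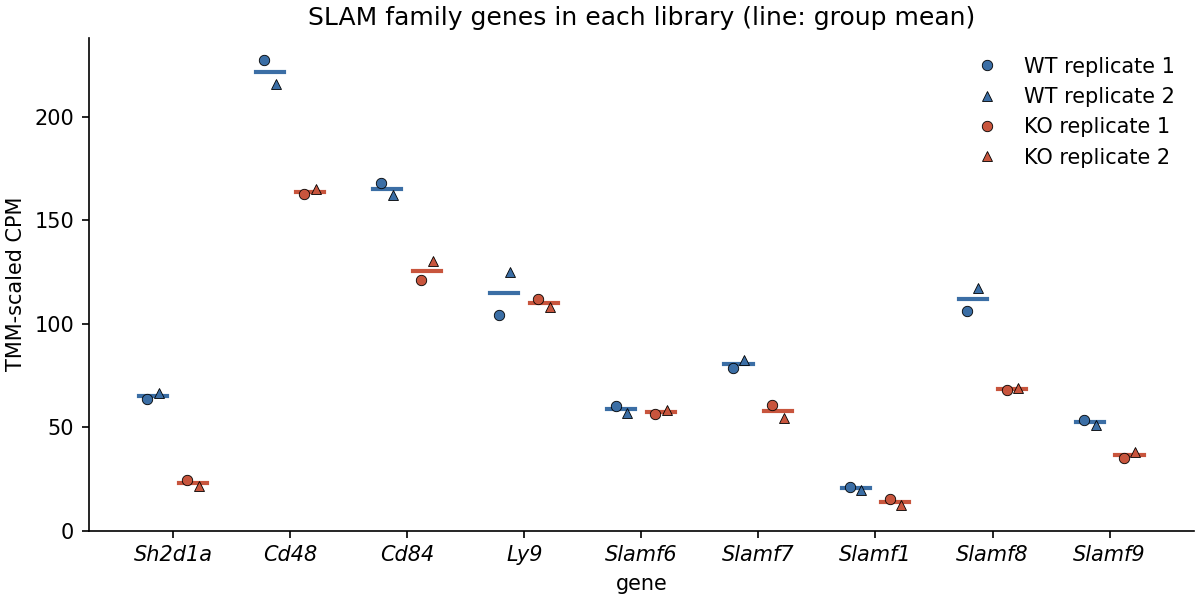
TMM-scaled CPM (vertical axis, linear from 0) of the 9 SLAM family genes in each library, with circles for replicate 1, triangles for replicate 2 and a line at each group's mean. The KO libraries lie below the WT libraries for 7 genes, most clearly for Sh2d1a (23.2 against 65.2 CPM on average), and overlap with them for Slamf6 and Ly9.

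Sh2d1a encodes SAP, the adaptor that most receptors of the family share. Its counts were 1512 and 1663 under the WT label and 652 and 589 under the KO label, which is 63.8 and 66.5 CPM against 24.5 and 21.8 CPM. Both KO libraries were far below both WT libraries, and the 2 libraries of a group lay close together. The means were 65.2 ± 1.92 and 23.2 ± 1.90 CPM (SD, n = 2 each), giving a log2 fold change of -1.49 (95% interval -1.71 to -1.28, edgeR adjusted p = 4.72e-07). This interval did not reach that of any other member, of which the lowest bound was -0.90 for Slamf1, but differences between members were not tested. Sh2d1a fell less relative to T cell markers: with the library scale set on the pan T cell list its log2 fold change was -1.16 (edgeR adjusted p = 6.65e-06, the highest over its alternatives). The gene lies on chromosome X from 42502453 to 42529330 on the plus strand (mm10, GENCODE M21). Its exons share 1465 bases with Tenm1 on the opposite strand, and Tenm1 was not analysed here, so a part of the reads could belong to that gene.

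The related adaptor EAT-2, encoded by Sh2d1b1 and known best from NK cells, was scarce. Its mean was 2.87 ± 0.356 CPM for WT and 2.26 ± 0.161 CPM for KO (SD, n = 2 each), with a log2 fold change of -0.35 and an interval of -1.11 to 0.42, too wide at this depth to separate a fall from no change (edgeR adjusted p = 0.551). Per length, Sh2d1a stood 11.3 and 9.85 times above Sh2d1b1 in the WT libraries and 5.29 and 4.25 times above it in the KO libraries (ratio of deposited FPKM values). The relation of Sh2d1a to Slamf6, a receptor whose tail binds SAP, turned over: FPKM of Sh2d1a was 2.08 and 2.29 times that of Slamf6 in the WT libraries but 0.852 and 0.734 times in the KO libraries.

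Cd48, the GPI-anchored receptor without a signalling tail that serves as ligand for CD244 and CD2, had the highest level of the family per length. Its values were 227 and 216 CPM under the WT label and 163 and 165 CPM under the KO label, so the groups did not overlap. The mean went from 222 ± 8.31 to 164 ± 1.62 CPM (SD, n = 2 each), a 1.35-fold fall (log2 fold change -0.43, standard error 0.058, edgeR adjusted p = 0.000186). Its binding partners did not pass the test. Cd2, an adhesion receptor of T cells, was at 159 ± 11.2 and 138 ± 11.9 CPM (log2 fold change -0.21, edgeR adjusted p = 0.0661), and it passed only without KO replicate 1, at -0.30 (edgeR adjusted p = 0.00167, with a range over its alternatives from there to 0.427). Cd244a, which encodes the receptor 2B4, was at 34.7 ± 2.64 and 30.1 ± 4.78 CPM (log2 fold change -0.20, edgeR adjusted p = 0.298), and it passed only without KO replicate 2, at -0.38 (edgeR adjusted p = 0.0207, and 0.0207 to 0.825 over all alternatives).

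Slamf7, Cd84 and Slamf1, which encode receptors that bind themselves, fell by similar amounts. Slamf7, known from NK cells, activated T cells and macrophages, was at 78.6 and 82.3 CPM in WT and 61.0 and 54.7 CPM in KO. Its log2 fold change was -0.48 with an interval of -0.65 to -0.30 (edgeR adjusted p = 0.00134), and 423 of its exonic bases are shared with the antisense gene Gm37787, which was not analysed here. Cd84, which supports contacts between T cells and B cells and is also found on myeloid cells, was at 168 and 162 CPM in WT and 121 and 130 CPM in KO. The log2 fold change of Cd84 was -0.39, with an interval of -0.53 to -0.26 (edgeR adjusted p = 0.000801). Slamf1, the first SLAM receptor described and a costimulator of T cells, rested on the fewest reads of the family, with 507 and 491 counts in WT and 406 and 335 in KO. All 3 genes had both KO libraries below both WT libraries. Slamf1 had a log2 fold change of -0.57 with the widest interval of the 9, -0.90 to -0.24 (edgeR adjusted p = 0.0183). It no longer passed without WT replicate 1, at -0.51. On the pan T cell scale it did not pass either (edgeR adjusted p = 0.233, the highest over its alternatives).

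Slamf6 and Ly9 were the members that did not pass. Slamf6 encodes Ly108, which is used as a marker of stem-like CD8 T cells in tumours, and Ly9 encodes CD229. Slamf6 was at 60.3 and 57.1 CPM under the WT label and at 56.6 and 58.5 CPM under the KO label. Ly9 was at 105 and 125 CPM in WT and at 112 and 108 CPM in KO. For both genes the KO values fell inside or next to the WT range, and Ly9 differed more between the WT libraries than between the groups. The log2 fold change of Slamf6 was -0.028 with an interval of -0.21 to 0.15 (edgeR adjusted p = 0.859), and that of Ly9 was -0.059 with an interval of -0.24 to 0.12 (edgeR adjusted p = 0.676). The lower bounds of these intervals lay above the estimates of all 7 members that fell, the nearest being -0.39 for Cd84. Relative to the pan T cell markers, both were higher, Slamf6 by 0.31 and Ly9 by 0.28 on the log2 scale (edgeR adjusted p = 0.0124 and 0.0118, which rose to at most 0.983 and 0.859 under other alternatives). On that scale the median over all genes tested was 0.33, so both stood close to it.

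Slamf8 and Slamf9, the members known mainly from macrophages and dendritic cells, fell as well. Slamf8, which is known to restrain the oxidative burst of macrophages, was at 106 and 117 CPM in WT and at 68.0 and 68.8 CPM in KO. Slamf9 was at 53.3 and 51.4 CPM in WT and at 35.3 and 38.0 CPM in KO. Neither gene's groups overlapped. The log2 fold change of Slamf8 was -0.71, with an interval of -0.87 to -0.55 (edgeR adjusted p = 2.38e-05), and that of Slamf9 was -0.51, with an interval of -0.72 to -0.31 (edgeR adjusted p = 0.00193). The 12 macrophage markers had a median log2 fold change of -0.061, near that of all genes tested, and Lyz2 (-0.015), Csf1r (0.024) and Cd68 (0.072) did not pass. The signs of Lyz2 and Csf1r turned with the scale or the library left out. Fcgr1 was lower, at -0.49, and Cd14 and Ms4a7 were the 2 higher ones. On the pan T cell scale, where the median over all genes tested was 0.33, Lyz2, Csf1r and Cd68 were higher. They were at 0.32, 0.36 and 0.41 (edgeR adjusted p = 0.000142, 0.000342 and 5.92e-05). Fcgr1 did not pass on that scale, at -0.15 (edgeR adjusted p = 0.121). With library totals alone Cd68 passed as well, at 0.16 (edgeR adjusted p = 0.0496). Without WT replicate 1, Cd14 and Ms4a7 no longer passed (edgeR adjusted p = 0.0563 and 0.262). Of 8 dendritic cell markers 1 was lower, Cd209a (log2 fold change -0.33, edgeR adjusted p = 0.0193). The 2 higher ones were Flt3 (0.59, edgeR adjusted p = 0.00161) and Siglech (67.1 and 64.9 CPM in WT, 168 and 174 in KO). Without Siglech the other 7, Cd209a and Flt3 among them, summed to 165 and 164 CPM in WT and 170 and 173 CPM in KO. Slamf8 remained lower under all 14 alternatives, the pan T cell scale included (log2 fold change -0.37, edgeR adjusted p = 0.00138, the highest over its alternatives).

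Per length, Cd48 stood far above the rest, at 179 ± 6.34 FPKM in WT and 133 ± 1.05 FPKM in KO (deposited FPKM, SD, n = 2 each). It made up 52.0% to 54.5% of the FPKM summed over the 8 receptors in the 4 libraries. In WT it was followed by Slamf9 (38.4 FPKM), Slamf8 (35.0), Ly9 (33.4), Cd84 (25.3), Slamf7 (16.9), Sh2d1a (11.4), Slamf6 (5.22) and Slamf1 (3.21). Slamf8 and Ly9 were the only neighbours in this order whose WT values overlapped. In KO the order was Cd48, Ly9 (32.2 FPKM), Slamf9 (27.0), Slamf8 (21.5), Cd84 (19.4), Slamf7 (12.2), Slamf6 (5.14), Sh2d1a (4.08) and Slamf1 (2.18), with no overlap between neighbours. Ly9 thus moved above Slamf8 and Slamf9, and Slamf6 above Sh2d1a. The share of Ly9 in the receptor sum was 9.0% and 10.8% in WT and 13.0% and 12.4% in KO, while that of Slamf8 was 9.85% and 10.9% in WT and 8.50% and 8.49% in KO.

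**Figure D2:**
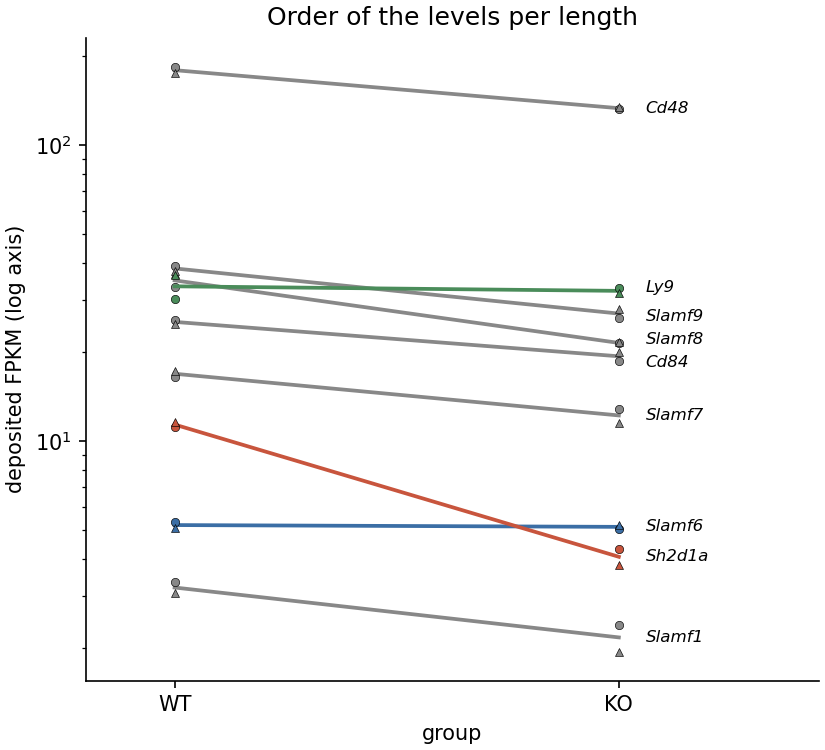
Deposited FPKM (vertical log axis) of the 9 genes in the libraries labelled WT and KO, with circles for replicate 1, triangles for replicate 2 and lines between group means. The lines of Sh2d1a (red) and Slamf6 (blue) cross, from 11.4 and 5.22 FPKM in WT to 4.08 and 5.14 in KO, and the line of Ly9 (green) stays level while those of Slamf8 and Slamf9 drop below it.

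The size of the falls moved with the reference chosen for the libraries. With library totals alone the median over all genes tested was 0.08, and the 7 members were still lower. That scale gave 1013 lower and 2105 higher genes in all. With the pan T cell list as reference, which gave 514 lower and 5903 higher genes, Cd48, Cd84, Slamf7, Slamf9 and Slamf1 kept a negative sign but did not pass. Their log2 fold changes were then -0.10, -0.06, -0.14, -0.18 and -0.23 (edgeR adjusted p = 0.206, 0.501, 0.176, 0.152 and 0.233, each the highest over that gene's alternatives). The lowest value for Cd48 came from DESeq2 (DESeq2 adjusted p = 3.56e-08). For Cd84, Slamf7, Slamf9 and Slamf1 the lowest came from fits with a single KO library, where the spread rests on the WT pair alone. The list behind that scale was itself uneven, from Cd6 at -1.02 and Cd247 at -0.90 to Cd3d at -0.14 and Lat at 0.42.

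**Figure D3:**
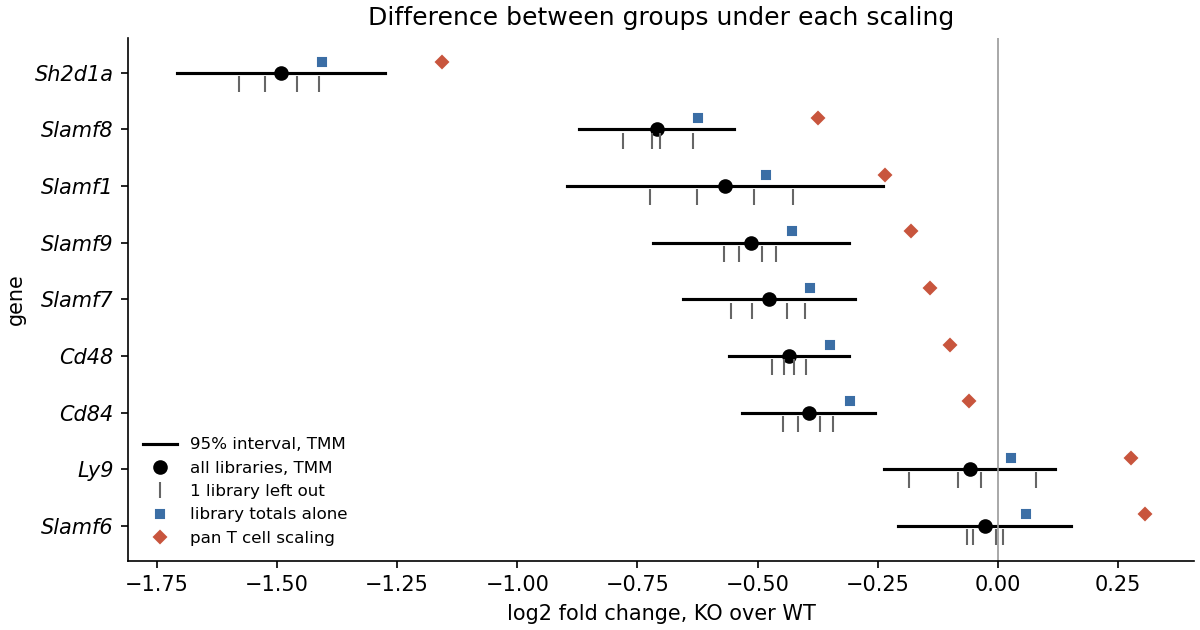
Log2 fold change, KO over WT (horizontal axis), of each gene with TMM factors (black point, line for the 95% interval), with each library left out in turn (grey ticks), with library totals alone (blue squares) and with the pan T cell markers as reference (red diamonds). The 7 lower genes lie below 0 on each scale shown, with Sh2d1a and Slamf8 at -1.16 and -0.37 on the pan T cell scale, whereas Slamf6 and Ly9 change sign with the scale and with the library left out.

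The 8 receptor genes lie on chromosome 1, within 1001945 bases from 171588624 to 172590568 (mm10, GENCODE M21). Ly9, Slamf7, Cd48, Slamf1, Cd84 and Slamf6 follow each other in that order, and Slamf9 and Slamf8 lie beyond a stretch of other genes. Of these 8 receptors, 6 were lower. Of 38 other genes tested within 500 kb of this span, 2 were lower and 2 higher, and their median log2 fold change was -0.035. These 38 include Cd244a, also a SLAM family receptor but not among the 9 chosen genes. Cd244a did not pass (log2 fold change -0.20, edgeR adjusted p = 0.298). The shares over all genes tested were 11.0% lower and 10.1% higher. The members that did not pass, Ly9 and Slamf6, stand at the outer ends of the row of 6 members. Cd244a, which is not in that row, spans Ly9 and reaches beyond it. The lower neighbours were Fcrl6, an Fc receptor-like gene of cytotoxic lymphocytes just beyond Slamf8 (17.7 ± 0.347 to 3.19 ± 0.891 CPM, log2 fold change -2.47, edgeR adjusted p = 5.25e-06), and Arhgap30 at -0.30 (edgeR adjusted p = 0.00855). Arhgap30 was at 0.035 on the pan T cell scale and at -0.21 without WT replicate 1 (edgeR adjusted p = 0.732 and 0.129, with a lowest value of 0.00028 over its alternatives). The higher ones were Vangl2, a planar polarity gene, at 1.00 (edgeR adjusted p = 0.00248), and the junction protein gene F11r at 0.78 (edgeR adjusted p = 0.00926, or 0.105 without WT replicate 2, with a lowest value of 0.000555). Ly9 overlaps Cd244a on the opposite strand without shared exonic bases.

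**Figure D4:**
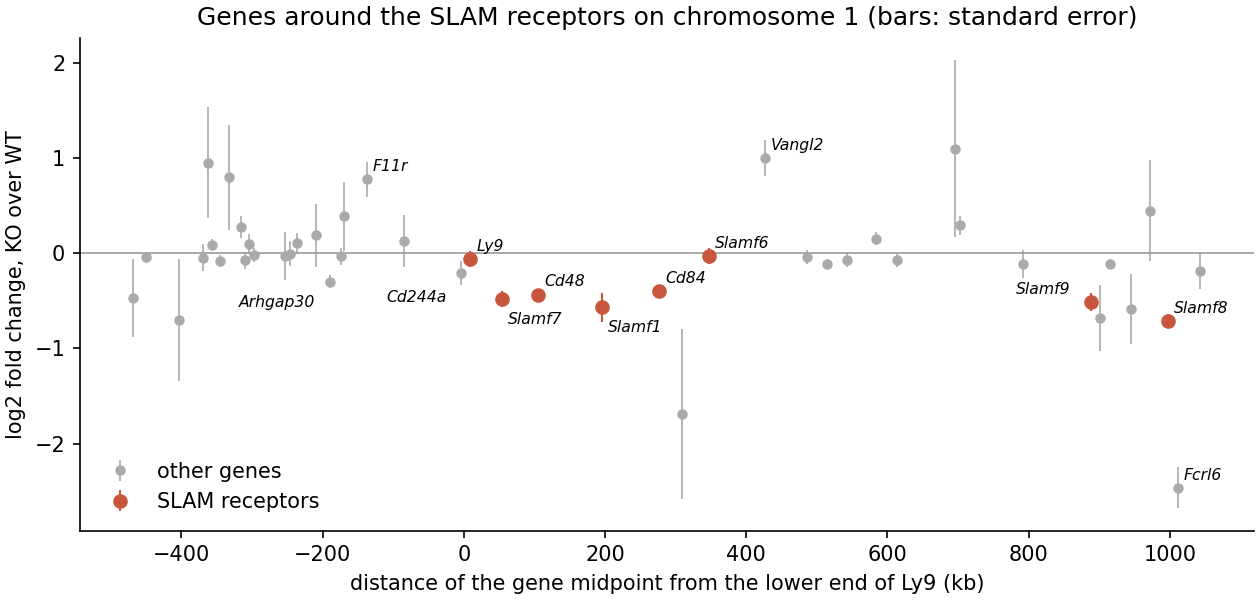
Log2 fold change, KO over WT, with its standard error (vertical axis) of the genes tested around the SLAM receptors, against the distance of each gene's midpoint from the lower end of Ly9 in kb (horizontal axis). The 6 lower receptors (red) lie between -0.39 and -0.71, and Ly9 and Slamf6 lie near 0. The other genes (grey), with the family receptor gene Cd244a among them, spread to both sides of 0, with Fcrl6 lowest at -2.47.

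The bases before the start site are shown for 3 receptor genes that fell and for Slamf6, which did not pass, so that their promoters can be read side by side. RefSeq promoter windows (GRCm38.p6) were matched for 7 of the 9 members. The windows of Cd48 and Slamf6 end upstream of the GENCODE M21 gene starts (171682009 and 171917515). The window of Slamf7 lies inside its GENCODE M21 gene span. Each line gives the 250 bases before the annotated start, 5′ to 3′ on the gene's strand, with capitals for the letters CAGAC or their reverse complement GTCTG, the short half-site that SMAD proteins are known to bind.
Cd48: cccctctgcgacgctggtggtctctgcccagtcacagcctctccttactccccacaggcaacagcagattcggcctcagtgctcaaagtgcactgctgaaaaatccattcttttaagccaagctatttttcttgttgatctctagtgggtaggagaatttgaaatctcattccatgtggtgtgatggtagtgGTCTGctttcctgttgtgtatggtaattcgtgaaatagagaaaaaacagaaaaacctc
Slamf9: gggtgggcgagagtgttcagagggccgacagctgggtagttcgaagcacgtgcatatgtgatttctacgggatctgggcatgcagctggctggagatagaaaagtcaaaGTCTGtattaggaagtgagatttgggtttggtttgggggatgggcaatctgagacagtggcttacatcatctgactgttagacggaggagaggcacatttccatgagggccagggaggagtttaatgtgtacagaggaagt
Slamf8: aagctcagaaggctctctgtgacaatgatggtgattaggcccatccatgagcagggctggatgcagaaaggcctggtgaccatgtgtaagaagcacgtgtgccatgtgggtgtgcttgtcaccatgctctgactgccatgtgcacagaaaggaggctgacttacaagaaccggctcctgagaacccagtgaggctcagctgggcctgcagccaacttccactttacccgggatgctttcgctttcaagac
Slamf6: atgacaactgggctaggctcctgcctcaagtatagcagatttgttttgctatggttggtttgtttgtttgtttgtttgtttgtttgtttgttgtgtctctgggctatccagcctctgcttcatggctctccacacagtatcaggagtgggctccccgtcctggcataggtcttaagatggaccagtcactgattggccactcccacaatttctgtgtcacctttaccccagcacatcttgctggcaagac
These stretches are chr1:171681742-171681991 on the plus strand for Cd48, chr1:172475110-172475359 on the plus strand for Slamf9, chr1:172590569-172590818 on the minus strand for Slamf8 and chr1:171917212-171917461 on the plus strand for Slamf6. The half-site was found on either strand in 4 of the 7 windows, once each in Cd48, Slamf9, Cd84 and Slamf1, and in 42.2% of 32851 windows of that length. All 4 genes fell, as did Slamf7 and Slamf8, whose windows did not hold these letters. On both strands, GAGGAA (a core of PU.1 sites) was found in 1 of the 7 windows, that of Slamf9, and in 23.3% of all windows. The T-box half-site AGGTGT was in 2, those of Slamf1 and Cd84, and in 11.8% of all. The RUNX core TGTGGT was likewise in 2, those of Cd84 and Cd48, and in 14.0% of all. The GC box core GGGCGG was in 0 of the 7 and in 32.7% of all, and the TATA box letters TATAAA in 0 of the 7 and in 12.4% of all. A match is a description of letters and not a binding site.

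Genes that act with the SLAM receptors were mostly lower where they passed. Of 27 tested signalling partners 10 were lower, 3 higher and 14 did not pass, with a median log2 fold change of -0.21. Over all genes tested 11.0% were lower and 10.1% higher. Fyn, the kinase that SAP brings to the receptors, fell 1.53-fold, from 57.6 ± 1.54 to 37.7 ± 1.16 CPM (SD, n = 2 each, edgeR adjusted p = 0.000403). Sh2d2a, which encodes the T cell adaptor TSAd, fell 2.63-fold, from 1087 ± 19.3 to 413 ± 12.5 CPM (edgeR adjusted p = 3.42e-09). Prkcq, a kinase activated downstream of the T cell receptor and of SAP, fell 2.84-fold, from 55.3 ± 3.29 to 19.5 ± 4.39 CPM. Plcg1, a phospholipase of T cell receptor signalling, fell 1.72-fold, and Lck, the kinase that starts that signalling, 1.39-fold. The adaptor genes Dok2 and Fyb fell 1.28-fold each. Fyn, Sh2d2a, Prkcq and Plcg1 also passed on the pan T cell scale, where Lck, Dok2 and Fyb did not (edgeR adjusted p = 0.058, 0.748 and 0.808, the highest over their alternatives). Lck is in the pan T cell list itself.

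The 3 higher partners were Ptpn6, Plcg2 and Tyrobp. Ptpn6, which encodes the phosphatase SHP-1 that can bind SLAM receptor tails in place of SAP, had a mean of 596 ± 8.81 CPM for WT and 693 ± 20.3 CPM for KO (log2 fold change 0.22, edgeR adjusted p = 0.0101). Without WT replicate 1 or KO replicate 2 it no longer passed (edgeR adjusted p = 0.0908 and 0.0552). Plcg2, a phospholipase of B cells and myeloid cells, was higher by 0.23 on the log2 scale (edgeR adjusted p = 0.0195), a call lost when either WT library was left out (edgeR adjusted p = 0.0908 and 0.128). Tyrobp, the adaptor DAP12 of myeloid and NK receptors, was higher by 0.18 (edgeR adjusted p = 0.0233) and lost the call when any library was left out and with the replicate number as a block (edgeR adjusted p = 0.0592 to 0.150). The lowest adjusted p-values over the alternatives of these 3 genes were 1.04e-05, 4.72e-05 and 1.26e-05. Of the other partners known from myeloid cells, Itgam, which encodes the integrin chain CD11b, was lower by a small amount (log2 fold change -0.26, edgeR adjusted p = 0.0414) except on the pan T cell scale, where it was at 0.077. It did not pass without WT replicate 1, WT replicate 2 or KO replicate 1 (edgeR adjusted p = 0.0508, 0.371 and 0.0506), with library totals alone (0.150) or by DESeq2 (0.0682), with a range of 0.0288 to 0.461 over its alternatives. The Fc receptor chain gene Fcer1g did not pass (log2 fold change 0.093, edgeR adjusted p = 0.264) except with library totals alone, at 0.18 (edgeR adjusted p = 0.0296), and on the pan T cell scale, at 0.43 (edgeR adjusted p = 4.00e-05, with a range from there to 0.829 over its alternatives). Ptpn11, which encodes the phosphatase SHP-2, was lower, at 51.7 ± 4.54 and 40.7 ± 1.16 CPM (log2 fold change -0.35, edgeR adjusted p = 0.0224). It did not pass with library totals alone, at -0.26, or on the pan T cell scale, at -0.014 (edgeR adjusted p = 0.0702 and 0.92). Without WT replicate 1 Ptpn11 did not pass either, at -0.26. Inpp5d, which encodes the phosphatase SHIP-1, was at 159 ± 9.50 and 156 ± 6.93 CPM and did not pass (edgeR adjusted p = 0.783). On the pan T cell scale Inpp5d was higher, at 0.30 (edgeR adjusted p = 0.0048).

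The genes whose pattern over the 4 libraries was most like that of each lower member were sought among 9873 tested genes with at least 5 CPM. Likeness was the root mean square difference of log2 CPM after each gene's mean was removed, with 2 genes named per member. For Sh2d1a these were Nkg7, a protein of cytotoxic granules (difference 0.037), and Ms4a4b, a membrane protein of T cells (0.042), which went from 1339 to 500 CPM and from 476 to 171 CPM. For Cd48 they were Tap1, a peptide transporter of antigen presentation (0.0065), and the kinase gene Stk17b (0.0081). For Slamf8 they were Psd (0.021) and Id2, a transcriptional regulator (0.027), for Slamf9 Tppp3 (0.0081) and Mfsd10 (0.0099), and for Slamf7 Cmtm3 (0.0044) and the creatine kinase gene Ckb (0.011). For Cd84 they were Slfn5 (0.0078) and Nhlrc3 (0.013), and for Slamf1 Ubxn7 (0.020) and the myeloid transcription factor gene Cebpa (0.025). With 4 libraries in 2 groups this likeness is mostly that of the group difference.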

How the data were processed

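Bulk RNA of sorted tumour CD8 T cells was sequenced in 4 libraries, 2 labelled WT and 2 labelled KO. Per the submitters' processing notes, the tools included featureCounts and Bowtie2, with Trim Galore 0.4.4, DESeq2 and edgeR, and the build was mm10; no roles are stated. The annotation and the strandedness were not given in the sources used here. Per the file headers, the deposited counts are whole reads per gene. The FPKM values that the authors deposited are scaled to exon length and library size and served only to compare levels between genes. For the 9 members they imply the exon lengths of GENCODE M21.

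The test was glmQLFTest of edgeR 4.0.16 (R 4.3.3) after TMM scaling, robust glmQLFit and the default filterByExpr (minimum count 10, minimum total 15), with Benjamini-Hochberg adjustment over 13358 genes, after a test on simulated data. Replicates differed by more than counting noise (chi-square per degree of freedom 7.39 in WT and 9.72 in KO). Alternatives were RLE, upper quartile, library totals, pan T cell scaling, 2 other filters, DESeq2 1.42.0, limma-voom (limma 3.58.1), the replicate number as a block, an adjusted p of 0.1 and leaving out each library. Leaving out mitochondrial genes was added after the data were seen. The pan T cell scale divides by the summed counts of 10 markers. Members and lists were chosen with earlier results of these data known. Named genes are the members, Smad4, Cd244a, Sh2d1b1, Fyn, Cd2, up to 6 other called partners and 3 called locus genes in each direction by p, and 2 genes of most like pattern per called member (log2 of CPM plus 0.5), without predicted genes or receptor segments. Ptpn11, Inpp5d, Itgam and Fcer1g, and the marker genes given with values, were named in addition after their values were seen. Sh2d1b2 was not analysed here. Some list members are not reported here by name.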

Additional observations from a re-analysis of the deposited data

How the results depend on the processing

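The same 7 members were lower under 12 of 14 alternatives. Leaving out WT replicate 1 ended the call of Slamf1, and the log2 fold change of Slamf1 ran from -0.72 to -0.43 over the libraries left out. On the pan T cell scale 2 members were lower and 2 higher, with Slamf1 at -0.23, Slamf7 at -0.14, Slamf9 at -0.18, Cd84 at -0.059 and Cd48 at -0.10, none of them past the threshold, and Slamf6 at 0.31 and Ly9 at 0.28. On that scale Cd244a was at 0.13, Cd2 at 0.13, Arhgap30 at 0.035 and Itgam at 0.077, none of them past the threshold. Inpp5d at 0.30, Lyz2 at 0.32 and Smad4 at 0.52 did pass (edgeR adjusted p = 0.0048, 0.000142 and 0.0124). In all, 514 genes were lower and 5903 higher on it. With library totals alone Slamf6 was at 0.057, Ly9 at 0.026, Inpp5d at 0.052 and Lyz2 at 0.070, and 2105 genes were higher. Leaving out 1 library moved Slamf6 between -0.064 and 0.0097 and Ly9 between -0.18 and 0.079. In the same fits Inpp5d ran from -0.090 to 0.026, Lyz2 from -0.064 to 0.032 and Csf1r from -0.018 to 0.064. Leaving out 1 library gave 831 to 1787 lower genes and 714 to 1605 higher genes in all, and Smad4 ran from -0.063 without KO replicate 2 to 0.40 without KO replicate 1. The causes of these shifts were not tested. With the replicate number as a block, the 7 lower members stayed so, and 1522 genes were lower and 1393 higher. The correlation across genes of the replicate differences in the 2 groups was -0.015, so the numbers give no sign of pairing. Depth limits mainly Slamf1 and Sh2d1b1, which rest on the fewest reads of the genes named here as members or adaptors.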
